A study of Mus musculus with 6 samples.

Results

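The genes described here encode the proteins that hold epithelial cells together: cadherins and their catenins, desmosomal proteins, tight junction proteins, connexins of gap junctions and nectins. They were listed by name, with 42 genes in all. Of these, 41 had a probe set of their own among the 18194 genes measured. Dsg3, which encodes a desmosomal cadherin, had none and is not analysed here. The oligonucleotides on the array that together measure a transcript form a probe set, and for each gene the brightest probe set was taken, that with the highest mean log2 intensity over all arrays.

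RNA came from cultured Wnt1-YL cells, a mouse mammary tumour line derived from the invasive carcinoma of a single MMTV-Wnt1 FVB/n mouse, in which the MMTV promoter drives the Wnt1 oncogene in mammary tissue. Both groups carried a lentiviral pLKO vector, with an shRNA against luciferase in the control (shLuc, 3 arrays) or against Sca-1 (shSca-1, 3 arrays), and grew in the same medium with bovine serum, insulin and EGF. The study asked what loss of Sca-1, a Ly6 family protein on the cell surface, does to these cells. All 6 samples come from 1 line of 1 tumour, and the labels call the replicates biological without saying whether each was a culture of its own, so a p-value measures only the spread between these samples.

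In adherens junctions, the extracellular parts of cadherins on neighbouring cells bind each other, while their tails bind β-catenin, p120-catenin and, through α-catenin, actin. Desmosomes join the keratin filaments of neighbouring cells, tight junctions seal the space between them with claudin strands, and connexins form channels from cell to cell. In the mammary gland, E-cadherin (Cdh1) and many claudins belong to the luminal cells, while P-cadherin (Cdh3) and desmosomal cadherins such as Dsc3 are found in the basal, myoepithelial layer.

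Ly6a, the gene of Sca-1, had intensities of 7646, 7362 and 2843 on shLuc replicates 1, 2 and 3, and the shSca-1 arrays had 285, 314 and 306, so the groups did not overlap. shLuc replicate 3 stood apart from the other 5 arrays: its highest correlation with any of them was 0.92 across probe sets, which are not independent, against 0.96 for each of the others. The array medians lay between 37.3 and 40.7. On shLuc replicate 3, 9 of 15 luminal markers measured reached 100 and exceeded every other array at least 4-fold. Ly6d of this list went the other way, with 27.7 there and 134 to 447 elsewhere. The 15 markers summed to 22573 there against 712 to 1016 elsewhere. The 12 basal and myoepithelial markers summed to 20437 on this array and to between 31155 and 36606 on the others. Taken singly, 4 of the 12 were lowest on this array, 2 were highest, and the rest lay within the range of the others. The 2 were Tagln, with 648 on shLuc replicate 3 and at most 120.0 elsewhere, and Myh11, under 64 on all 6 arrays. The lists for fibroblasts (184 to 451), endothelial cells (146 to 165) and leukocytes (247 to 544) had smaller sums than the luminal and basal lists on all 6. Single markers were not all dim (under 64), with Cd68 up to 311, Pdgfra up to 292 and Pdgfrb up to 169.6. The fibroblast sums were 226, 184 and 391 on the shLuc arrays and 451, 426 and 432 on the shSca-1 arrays. Whether shLuc replicate 3 came from a different culture or a mixture of cells was not tested, and every value on 6 arrays includes it. Counts, and most comparisons, are therefore also given on 5 arrays, without shLuc replicate 3.

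A single junction gene, Nectin2, was called between shSca-1 and shLuc cells, a number near the share of all genes called. The methods call a gene at a fold change over 1.5 with an unadjusted p under 0.01, and with these thresholds limma on 6 arrays gave 0 junction genes higher in shSca-1 cells, against 0.528% of all genes, and 1 lower, Nectin2, against 1.52% of all genes. Of the 373 genes past these thresholds 74.3% were lower in shSca-1 cells, a share of 60.9% with quantile normalization and 62.9% with each array centred on its median. At an adjusted p under 0.05 limma gave 0 junction genes and 0% of all genes, and the two-sided test of the methods, adjusted likewise, also gave 0 of either. At an unadjusted p under 0.05 limma gave 6 of the 41 junction genes, against 10.6% of all genes, and the methods' test gave 3 of the 41, against 10.3% of all genes. Without shLuc replicate 3, limma at an adjusted p under 0.05 gave 0 junction genes higher, against 1.17% of all genes, and 1 lower, again Nectin2, against 2.73% of all genes. For fits with a further array left out, the share of all genes called was not computed, so their counts have no background. Leaving out shSca-1 replicate 3 as well gave 7 junction genes (Cdh3, Ctnnd1, Dsc3, Dsg2, Dsp, Gjb2 and Nectin2). With shSca-1 replicate 2 left out as well, the count was 0. It was also 0 without shLuc replicate 1 or shLuc replicate 2 as well, fits in which 1 shLuc array is left and is assumed to vary like the shSca-1 arrays.

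The groups did not overlap for 3 junction genes that were higher on all shSca-1 arrays (7.18% of all genes) and for 6 that were lower (11.5% of all genes). The 3 were Gjb2, Nectin1 and Nectin4, and the 6 were Ctnna1, Ctnnd1, Ctnnd2, Cldn12, Cxadr and Nectin2. The median log2 fold change of the junction genes was -0.17 on 6 arrays, with 29 below 0 and 12 above, beside a median of -0.04 over all genes. On the 5 arrays it was -0.02, with 21 below 0 and 20 above, beside -0.04 over all genes, and 18 junction genes changed sign.

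On shLuc replicate 3, 10 of the 41 junction genes reached 100 and exceeded every other array at least 4-fold, against 1.58% of all genes. They were Cdh1, Dsc2, Dsg2, Ppl, Cldn1, Cldn3, Cldn4, Cldn7, Ocln and Marveld2. A single junction gene, Gjb2, was at least 4 times lower there than on any other array, against 0.731% of all genes. By the same measures, 0 junction genes stood out in this way on each of the other 5 arrays. shLuc replicate 3 had the highest value of the 6 arrays for 25 of the 41 junction genes, against 5338 of all 18194 genes. It had the lowest for 11 of the 41, against 4396 of all 18194 genes. Since the RNA came from all cells of a culture, fewer cells of a type and less RNA per cell cannot be told apart, and the part of the luminal markers in these values was not tested.

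**Figure D1:**
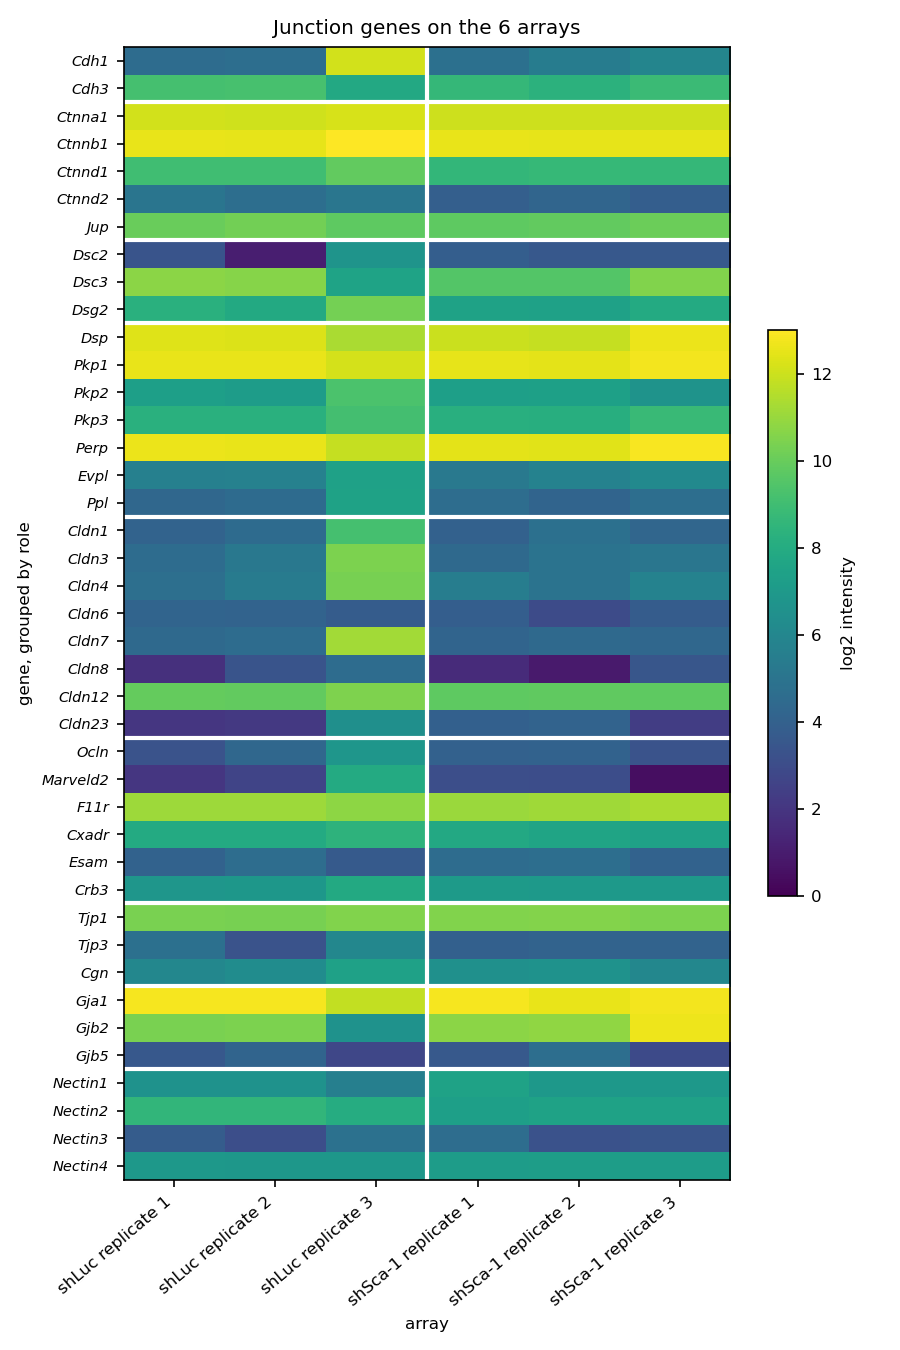
Log2 intensity of the 41 junction genes (lines, grouped by role) on the 6 arrays (columns), with yellow for high and dark blue for low values. The shLuc replicate 3 column is brighter than the others for genes such as Cdh1, Cldn3, Cldn4 and Cldn7, and darker for Dsc3 and Gjb2. It was the highest of the 6 for 25 of the 41 genes, against 5338 of all 18194 genes.

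Of the classical cadherins, Cdh1 was high on shLuc replicate 3, and Cdh3 was low there by its brightest probe set. Cdh1, which encodes E-cadherin, had intensities of 24.6, 26.2 and 4482 on the shLuc arrays and of 27.4, 43.3 and 60.3 on the shSca-1 arrays. The value on shLuc replicate 3 was 74.4 times the highest of the others, which were all dim (under 64). Its log2 fold change, shSca-1 minus shLuc, was -1.78 (95% interval -6.26 to 2.70, adjusted p = 0.82, limma) on 6 arrays and 0.71 (-0.14 to 1.56, adjusted p = 0.41, limma) on 5. Cdh3, which encodes P-cadherin, had 573, 602 and 228 on the shLuc arrays and 397, 329 and 458 on the shSca-1 arrays. Its lowest value was that of shLuc replicate 3, and each shSca-1 array was below shLuc replicates 1 and 2. Its log2 fold change was -0.13 (standard error, SE, 0.37, limma adjusted p = 0.94) on 6 arrays and -0.59 (SE 0.14, limma adjusted p = 0.076) without that array. A second Cdh3 probe set disagreed on shLuc replicate 3, which was its highest array, with 97.8, 93.0 and 201 against 77.4, 109 and 68.4.

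The catenins link cadherin tails to actin or regulate how long cadherins stay at the surface, and none of the 5 passed the thresholds. Ctnnb1, which encodes β-catenin, also the transcriptional effector of Wnt signalling, had 5985, 5868 and 8249 on the shLuc arrays and 6042, 5957 and 5826 on the shSca-1 arrays. Apart from shLuc replicate 3 its arrays lay close together, and without it the log2 fold change was 0.00 (95% interval -0.13 to 0.14, limma). Ctnna1, which encodes αE-catenin, had 4360.0, 4269 and 4669 against 4174, 4151 and 4135, lower on every shSca-1 array by a small margin (log2 fold change -0.09, interval -0.28 to 0.09, limma). A second bright probe set of Ctnna1 had overlapping groups, with 3895, 3967 and 4186 against 3688, 3954 and 3779. Jup, which encodes plakoglobin, the catenin shared by desmosomes and adherens junctions, had 1063, 1188 and 881 against 868, 952 and 1069.7, with overlapping groups.

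Ctnnd1 and Ctnnd2 of the p120-catenin family were lower on all shSca-1 arrays by their brightest probe sets. Ctnnd1, which encodes p120-catenin itself, had 525, 519.9 and 937 on the shLuc arrays and 387, 424 and 410.3 on the shSca-1 arrays. The groups did not overlap, with shLuc replicate 3 the highest, and the log2 fold change was -0.64 (SE 0.23, limma adjusted p = 0.48) on 6 arrays and -0.36 (SE 0.09, limma adjusted p = 0.083) without that array. Ctnnd2, which encodes δ-catenin, was dim throughout, with 33.3, 25.5 and 33.9 against 15.4, 19.0 and 14.6, a log2 fold change of -0.92 (SE 0.28, limma adjusted p = 0.40). A second, equally dim probe set of Ctnnd2 had overlapping groups, with 18.6, 24.2 and 20.5 against 19.0, 17.1 and 20.2. Ctnnd2, Cxadr and Nectin2 are in the study's own list of changed genes, a list drawn from these same samples and thus no independent evidence of their direction.

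The desmosomal cadherins also split on shLuc replicate 3. Desmocollins and desmogleins are the adhesive proteins of desmosomes. Dsc3 had 1740.4, 1607 and 187 on the shLuc arrays and 732, 724 and 1470.2 on the shSca-1 arrays, while Dsg2 had 309, 241 and 1242 against 181, 175 and 251. Dsc2 had 10.3, 2.14 and 106 against 14.8, 11.9 and 12.4. So Dsg2 and Dsc2 were highest on shLuc replicate 3 and Dsc3 was lowest, and Dsc3 on shSca-1 replicate 3 was near shLuc replicates 1 and 2 rather than near the other shSca-1 arrays. On the 5 arrays the log2 fold change of Dsc3 was -0.86 (SE 0.28, limma adjusted p = 0.17) and that of Dsg2 was -0.45 (SE 0.19, limma adjusted p = 0.29). A further probe set of Dsg2, 1460380_at, had 183, 255 and 256 against 283, 212 and 216, and so was not highest on shLuc replicate 3. All other probe sets of this gene were highest there, such as 1449740_s_at with 707 there and at most 138 elsewhere.

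The desmosomal plaque and the cornified envelope had no gene past the thresholds among 7. Dsp, which encodes desmoplakin, the link to keratin filaments, had 5235, 5094 and 2566 on the shLuc arrays and 3914, 3769 and 6233 on the shSca-1 arrays. Pkp1, which encodes plakophilin 1, had 6163, 6161 and 4660.5 against 5945, 5707 and 6999. Perp, which encodes a desmosomal membrane protein and p53 target, had 6219.7, 6143 and 3742 against 5580.3, 5374 and 7427. For all 3 genes shLuc replicate 3 was the lowest and shSca-1 replicate 3 the highest array. Their log2 fold changes lay between 0.14 and 0.21 on 6 arrays and between -0.19 and 0.01 on 5.

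The other plaque genes were higher on shLuc replicate 3 than on any other array. Ppl, which encodes periplakin, had 20.2, 23.5 and 182 on the shLuc arrays and 25.0, 18.3 and 25.7 on the shSca-1 arrays, and it was dim on all but shLuc replicate 3. Pkp2 was 633 on that array and between 102 and 165 on the others. Pkp3 and Evpl, which encode plakophilin 3 and envoplakin, were 562 and 172 there and at most 445 and 71.0 elsewhere. On the 5 arrays the log2 fold changes of these 4 genes lay between -0.14 and 0.13.

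The claudins, the strand-forming proteins of tight junctions, made up 4 of the 10 genes that stood out on shLuc replicate 3. Cldn7 had 21.8, 24.5 and 2326 on the shLuc arrays and 18.0, 22.1 and 20.4 on the shSca-1 arrays, 94.8 times the highest of the others. Cldn3 had 23.9, 36.9 and 1364 against 21.9, 31.1 and 34.4, and Cldn4 had 27.1, 42.8 and 1308 against 45.7, 30.8 and 55.2. Cldn1 had 17.4, 23.5 and 579 against 16.6, 27.7 and 19.3. On the 5 other arrays all 4 genes were dim, with shLuc and shSca-1 arrays overlapping. Their log2 fold changes, between -2.42 and -1.43 on 6 arrays, lay between -0.20 and 0.33 without shLuc replicate 3, and the lowest adjusted p of the 4 by limma was 0.71 on 6 arrays and 0.72 on 5.

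Cldn3 and Cldn4 lie on the same chromosome and on opposite strands. The 250 bases before their start in RefSeq (GRCm38.p6) are shown because both genes moved together on shLuc replicate 3, with the E-box CAGGTG, or CACCTG on the other strand, in capitals. This is a motif bound by Snai and Zeb repressors of epithelial genes. The Cldn3 window is chr5:134985964-134986213 on the plus strand and the Cldn4 window is chr5:134946935-134947184 on the minus strand.
Cldn3: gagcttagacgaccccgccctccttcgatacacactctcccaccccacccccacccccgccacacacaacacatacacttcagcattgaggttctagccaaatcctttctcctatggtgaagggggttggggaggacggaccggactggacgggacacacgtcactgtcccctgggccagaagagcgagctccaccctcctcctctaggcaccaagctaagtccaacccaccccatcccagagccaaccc
Cldn4: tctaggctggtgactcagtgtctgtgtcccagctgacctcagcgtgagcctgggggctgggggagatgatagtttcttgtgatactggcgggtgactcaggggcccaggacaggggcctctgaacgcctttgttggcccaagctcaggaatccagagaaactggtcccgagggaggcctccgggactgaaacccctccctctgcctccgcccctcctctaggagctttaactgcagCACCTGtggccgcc
The Cldn4 window held 1 such E-box and the Cldn3 window held none. Of the 42 junction genes, 24 had a window in the table of promoters. Among the 10 genes high on shLuc replicate 3, 6 had a window and 3 of these held the motif in any of their windows. So did 6 of the 18 other junction genes and 19.4% of the 27025 genes with a window. Counted by window, the motif was in 33.3% of the 9 windows of the high genes. It was also in 33.3% of the 24 windows of the other junction genes, and in 17.2% of all windows. The Grainyhead motif AACCNGTT, or AACNGGTT on the other strand, was found in 0 of the 6, in 1 of the 18 (Cgn) and in 2% of all genes. A match describes letters in the window and does not show a site in use.

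Of the other claudins, Cldn12 had 984, 924 and 1427 on the shLuc arrays and 873, 914 and 870.1 on the shSca-1 arrays. Its groups did not overlap, but the log2 fold change was -0.30 (SE 0.17, limma adjusted p = 0.65) and -0.11 without shLuc replicate 3. Cldn23 was 87.8 on shLuc replicate 3 and between 4.09 and 17.7 elsewhere, and Cldn6 and Cldn8 were dim on all 6 arrays.

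**Figure D2:**
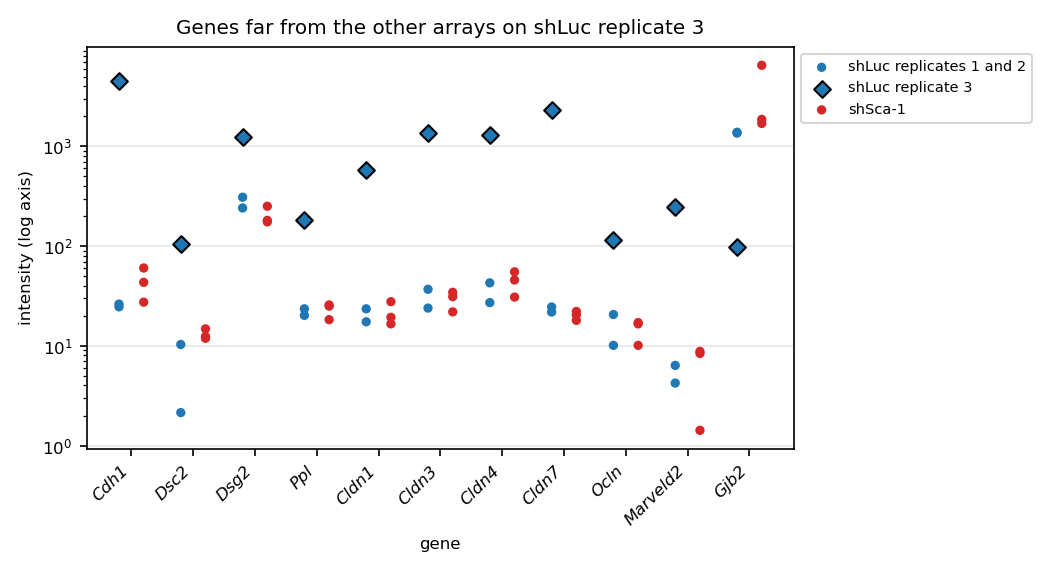
Intensity (log axis) of the 10 junction genes that were high on shLuc replicate 3 and of Gjb2, which was low there. Points are arrays, with shLuc in blue (replicate 3 as a diamond) and shSca-1 in red, and for Cldn7 shLuc replicate 3 stood at 2326 with the other 5 arrays between 18.0 and 24.5.

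Ocln and Marveld2 encode occludin and tricellulin, membrane proteins of tight junctions, and both stood out on shLuc replicate 3. Ocln had 10.1, 20.6 and 115 on the shLuc arrays and 16.6, 17.1 and 10.1 on the shSca-1 arrays, and a further probe set had 395 on shLuc replicate 3 and at most 8.25 elsewhere. Marveld2 had 4.23, 6.36 and 246 against 8.79, 8.38 and 1.42. Neither separated shSca-1 from the other shLuc arrays.

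Among the immunoglobulin-like proteins and polarity proteins of tight junctions, F11r, which encodes JAM-A, had 2195, 2183 and 1748 on the shLuc arrays and 2085, 2251 and 2645 on the shSca-1 arrays, with overlapping groups (log2 fold change 0.19, interval -0.13 to 0.51, limma). Crb3, a gene of the Crumbs polarity complex, was 239 on shLuc replicate 3 and between 115 and 135 on the others. A further Crb3 probe set had 327 there and at most 30.9 elsewhere. Esam was dim on all 6 arrays.

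Cxadr, which encodes the coxsackievirus and adenovirus receptor, an adhesion protein of epithelial tight junctions, was lower on all shSca-1 arrays by all probe sets but a dim one, though by very different amounts. Its brightest probe set, 1452391_at, had 251, 245 and 334 on the shLuc arrays and 228, 196 and 176 on the shSca-1 arrays. The groups did not overlap, but the log2 fold change of -0.46 (SE 0.17, limma adjusted p = 0.49) was below the fold threshold. Probe set 1453282_at, described after its values were seen, had 353, 333 and 972 against 84.1, 90.6 and 90.0, a log2 fold change of -2.46 (SE 0.40, limma adjusted p = 0.14) on 6 arrays and -1.96 (SE 0.12, limma adjusted p = 0.0013) on 5. Probe set 1427321_s_at had 276, 209 and 720.5 against 47.1, 47.0 and 61.3, and without shLuc replicate 3 its log2 fold change was -2.22 (SE 0.20, limma adjusted p = 0.0044). On these probe sets shLuc replicate 3 was the highest array, and shLuc replicates 1 and 2 were still above every shSca-1 array. Probe set 1449949_a_at had a log2 fold change of -0.72 (adjusted p = 0.33, limma), and 1451865_at was dim with overlapping groups. The files do not say which transcript of Cxadr each probe set measures.

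The plaque proteins of tight junctions had no gene past the thresholds among 3. Tjp1, which encodes ZO-1, had 1319, 1302 and 1497 on the shLuc arrays and 1509.9, 1539 and 1367 on the shSca-1 arrays. The groups overlapped through shLuc replicate 3, while each shSca-1 array was above shLuc replicates 1 and 2. The log2 fold change was 0.10 (interval -0.14 to 0.34, limma) on 6 arrays and 0.17 (-0.01 to 0.35, limma) on 5. Cgn, which encodes cingulin, was 176 on shLuc replicate 3 and between 63.9 and 100.2 elsewhere, though its second probe set was 66.8 there and between 40.2 and 79.2 elsewhere. Tjp3 was dim on all 6 arrays.

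Of the 3 connexin genes, Gja1 and Gjb2 were lowest on shLuc replicate 3 and Gjb5 was dim on all 6 arrays. Gja1, which encodes connexin 43, had 7338, 7265 and 3591 on the shLuc arrays and 7287, 6088 and 7093 on the shSca-1 arrays. Apart from shLuc replicate 3 the arrays overlapped, with a log2 fold change of -0.10 (interval -0.30 to 0.09, limma) on 5 arrays. The 5 further probe sets of Gja1 were also lowest on shLuc replicate 3. Not all connexins were low there: Gjc1, which encodes connexin 45 and is in the list of other gap junction genes, was 896 on that array and between 4.77 and 13.2 elsewhere, a gene chosen after its values were seen.

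Gjb2, which encodes connexin 26, had 1358, 1386 and 98.2 on the shLuc arrays and 1697, 1865 and 6507 on the shSca-1 arrays. Every shSca-1 array was above every shLuc array, but shLuc replicate 3 was 13.8 times below the lowest of the others and shSca-1 replicate 3 was far above the rest. Mean intensity was 948 ± 736 (SD, n = 3) in shLuc and 3356 ± 2729.9 (SD, n = 3) in shSca-1 cells, and the log2 fold change was 2.27 (SE 1.07, limma adjusted p = 0.59). On the 5 arrays it was 1.00 (standard error 0.51, interval -0.17 to 2.17, adjusted p = 0.39, limma). The window before the start of Gjb2 is at chr14:57104703-57104952 on the minus strand. It is shown because Gjb2 alone among junction genes was at least 4 times lower on shLuc replicate 3. Dsc3 fell just short of this cutoff, at 3.88 times below the lowest of the others. The Gjb2 window also held 1 E-box, in capitals.
Gjb2: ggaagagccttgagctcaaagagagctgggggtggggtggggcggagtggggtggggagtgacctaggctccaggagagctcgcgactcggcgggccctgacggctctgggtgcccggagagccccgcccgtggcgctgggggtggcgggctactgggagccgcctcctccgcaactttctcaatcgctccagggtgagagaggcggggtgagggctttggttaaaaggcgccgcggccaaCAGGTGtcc

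The nectins, immunoglobulin-like adhesion proteins that bind across cells and join cadherins through afadin, included the junction gene that was called in both fits. Nectin2 had 381, 373 and 264 on the shLuc arrays and 162, 181 and 173 on the shSca-1 arrays. The groups did not overlap, and shLuc replicate 3 was the nearest of its group to the shSca-1 arrays. Mean intensity was 339 ± 65.1 (SD, n = 3) in shLuc and 172 ± 9.62 (SD, n = 3) in shSca-1 cells. On the log2 scale the difference was -0.96 (SE 0.17, limma adjusted p = 0.17) on 6 arrays and -1.13 (SE 0.11, limma adjusted p = 0.0050) on 5. Its other probe set, 1424456_at, had 138, 139 and 121 against 72.1, 98.0 and 64.9, a log2 fold change of -0.78 (SE 0.20, limma adjusted p = 0.32) and of -0.84 (adjusted p = 0.081, limma) on 5 arrays. So both probe sets were lower on all shSca-1 arrays. The call on 5 arrays was lost when values under 64 were raised to 64, with no trend in the variance, with the test of the methods, and when shLuc replicate 1, shLuc replicate 2 or shSca-1 replicate 2 was left out too. With 3 arrays per group, the smallest two-sided p that an exact permutation test allows is 0.1.

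The 250 bases before the start of Nectin2, at chr7:19749574-19749823 on the minus strand, are shown because Nectin2 was the junction gene called in both fits. They held 1 E-box, in capitals.
Nectin2: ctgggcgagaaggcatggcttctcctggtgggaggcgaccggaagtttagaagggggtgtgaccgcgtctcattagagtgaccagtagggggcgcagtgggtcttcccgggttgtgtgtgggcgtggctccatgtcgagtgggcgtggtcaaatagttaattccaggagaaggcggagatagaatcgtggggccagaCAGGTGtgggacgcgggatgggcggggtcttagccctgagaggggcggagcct

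Nectin1 and Nectin4 were higher on all shSca-1 arrays, with smaller differences. Nectin1 had 98.3, 97.5 and 49.1 on the shLuc arrays and 177, 124 and 120.3 on the shSca-1 arrays, a log2 fold change of 0.83 (SE 0.32, limma adjusted p = 0.50). Its 2 further probe sets had log2 fold changes of 0.40 and 0.34, and of 0.11 and -0.01 without shLuc replicate 3, against 0.50 for the first. Nectin4 had 124, 116 and 119.5 against 147, 151 and 147, a log2 fold change of 0.31 (SE 0.13, limma adjusted p = 0.54) that was the same on 5 arrays. A second Nectin4 probe set was also higher on all shSca-1 arrays, with a log2 fold change of 0.45 (adjusted p = 0.50, limma). The brightest probe set of Nectin3 by mean log2 was dim on all 6 arrays, while 3 others had between 276 and 530.1 on shLuc replicate 3 and at most 13.1 elsewhere.

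**Figure D3:**
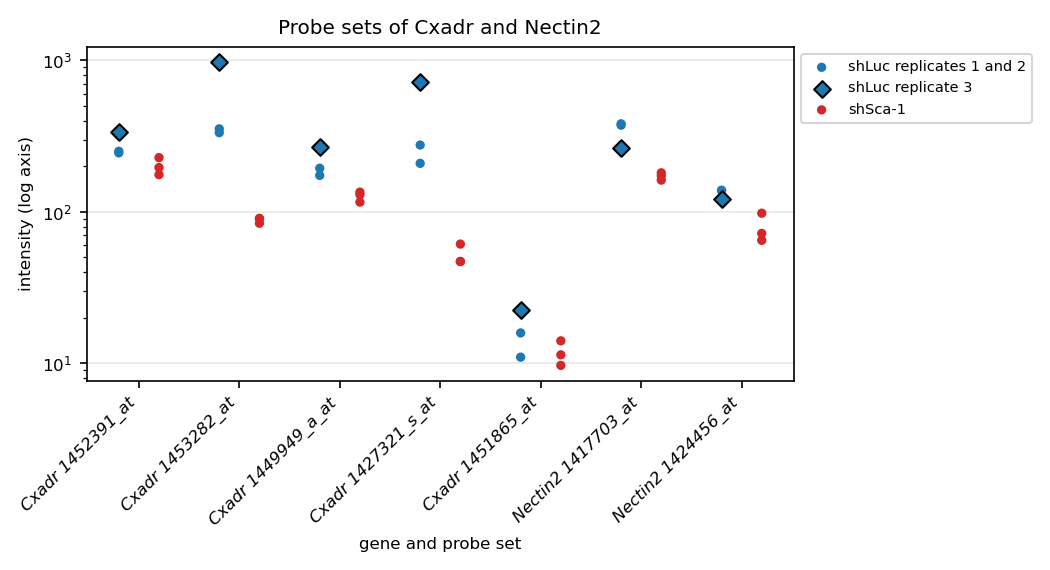
Intensity (log axis) on the 6 arrays of the 5 probe sets of Cxadr and the 2 of Nectin2, with shLuc in blue (replicate 3 as a diamond) and shSca-1 in red. For 1453282_at of Cxadr the shLuc arrays were between 333 and 972 and the shSca-1 arrays between 84.1 and 90.6, while for 1452391_at the groups were 245 to 334 and 176 to 228.

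Counted by probe set, the 41 genes had 93, and 24 genes had more than 1. On 6 arrays 6 probe sets of 3 genes (Ctnna1, Cxadr and Nectin2) were past the thresholds, all 6 lower in shSca-1 cells, against 1.33% of all probe sets. On the 5 arrays limma gave 4 probe sets of the same 3 genes at an adjusted p under 0.05, again all lower, against 1.92% of all probe sets. That of Ctnna1, 1436631_at, was dim on the shSca-1 arrays (18.9, 24.9 and 23.1 against 71.9, 66.0 and 37.0), and the 2 bright probe sets of this gene had log2 fold changes of -0.09 and -0.08. On shLuc replicate 3, 21 probe sets of 12 genes were high, against 1.26% of all probe sets, and the genes were the 10 named above with Crb3 and Nectin3.

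**Figure D4:**
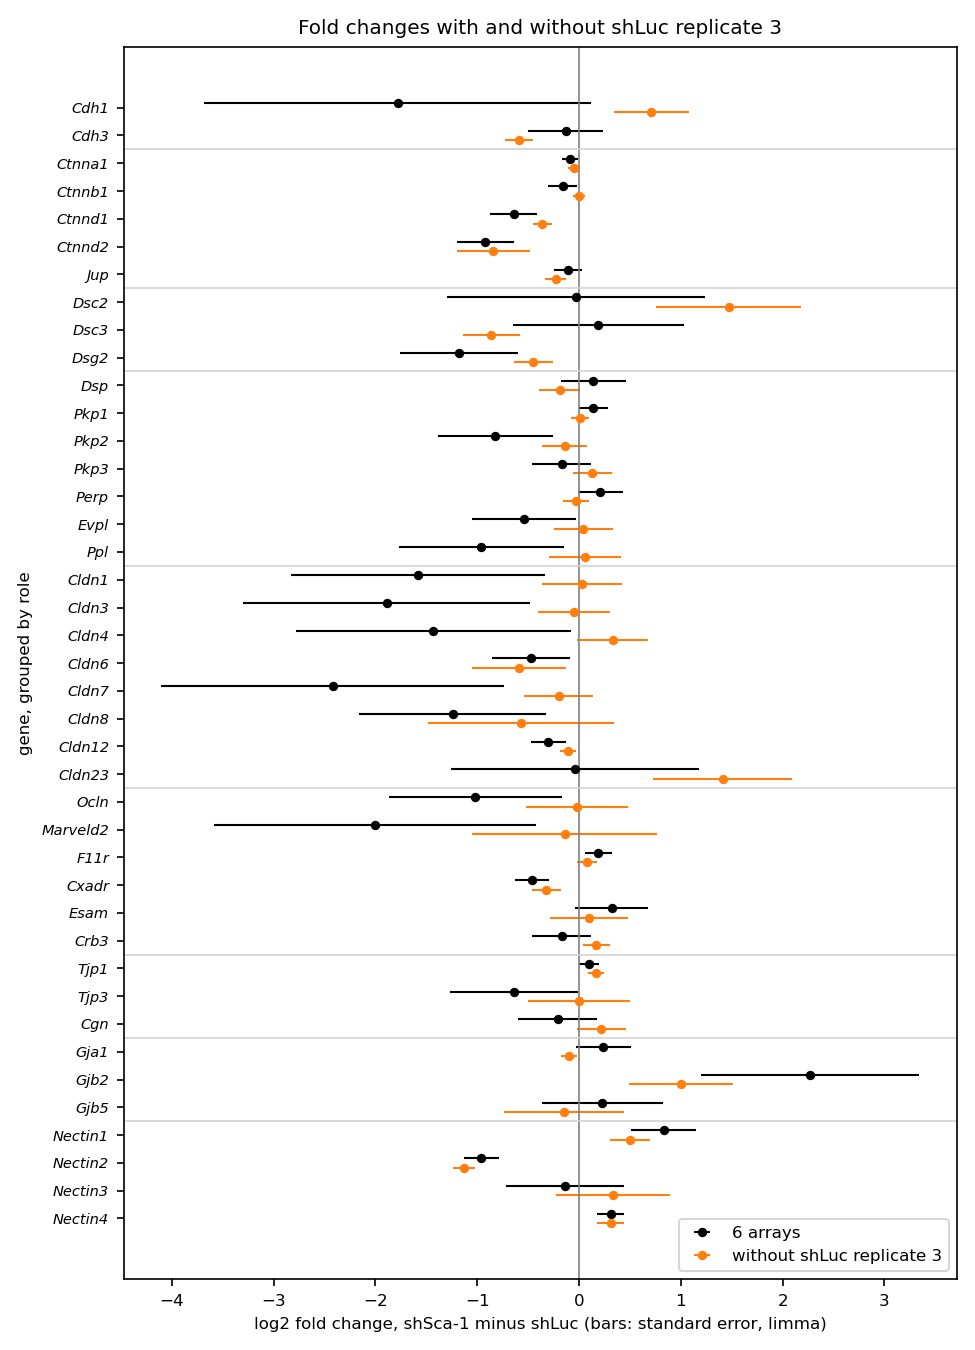
Difference in mean log2 intensity, shSca-1 minus shLuc, for the 41 junction genes, grouped by role, with 6 arrays (black) and without shLuc replicate 3 (orange), where bars are limma's standard errors. Cldn7 moved from -2.42 to -0.20 and Cdh1 from -1.78 to 0.71, while Nectin2 was -0.96 and -1.13.

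Of 101 further genes in 6 lists (other adherens junction, desmosome and hemidesmosome, tight junction and gap junction genes, polarity complexes and transcription regulators of epithelial junctions), 92 were measured, and on 6 arrays 0 were higher and 3 lower at the thresholds, against 0.528% and 1.52% of all genes. Pvr, a nectin-like adhesion gene, had 298, 292 and 461 on the shLuc arrays and 200.3, 219 and 179.7 on the shSca-1 arrays (log2 fold change -0.78, limma adjusted p = 0.33). Prkci, which encodes the atypical protein kinase C of the Par polarity complex, had 1347, 1316 and 1625 against 785, 826 and 889.6 (log2 fold change -0.77, SE 0.12, limma adjusted p = 0.11). Grhl1, a Grainyhead factor that activates desmosomal genes, had 102, 99.3 and 245 against 18.6, 29.8 and 72.4 (log2 fold change -1.98, SE 0.56, limma adjusted p = 0.35). The groups did not overlap for any of the 3.

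Without shLuc replicate 3, 0 of the 92 genes were higher and 4 lower at an adjusted p under 0.05, against 1.17% and 2.73% of all genes. Prkci was among them (adjusted p = 0.010, limma), with Pard6g, another Par complex gene, which had 2316, 2263 and 362 on the shLuc arrays and 1319.8, 1492 and 1560.2 on the shSca-1 arrays (log2 fold change -0.66 on 5 arrays, adjusted p = 0.012, limma). Dst, which encodes the hemidesmosomal plakin BPAG1, had 3524, 3410.1 and 322 against 1254, 1328 and 1974 (-1.22, adjusted p = 0.016, limma). Zeb2, which encodes a repressor of E-cadherin, had 463, 374 and 81.2 against 234, 266 and 280.2 (-0.68, adjusted p = 0.041, limma). For Pard6g, Dst and Zeb2 shLuc replicate 3 was the lowest of the 6 arrays, so these 3 calls rest on leaving it out, and on 6 arrays their log2 fold changes were 0.23, -0.08 and 0.10.

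Of 12 basal markers measured, 2 were lower in shSca-1 cells at the thresholds on 6 arrays (1.52% of all genes) and 3 at an adjusted p under 0.05 (limma) without shLuc replicate 3 (2.73% of all genes), with Krt15 at -2.77 and Krt17 at -0.75 on 6 arrays and Acta2 at -0.66 on 5. Krt15 was dim on all 6 arrays, between 4.06 and 58.8. Krt5 and Krt14, the main basal keratins, went the other way and were higher on all shSca-1 arrays, by small margins apart from shLuc replicate 3. They were between 9576 and 11849 on the 5 arrays without it. Their log2 fold changes were 0.66 and 0.25 on 6 arrays and 0.11 and 0.12 on 5, and neither passed. Of the 12 basal markers, 4 had a log2 fold change above 0 on 6 arrays and 8 below. Of the luminal markers 0 of 15 passed in either fit. The part of these marker changes in the junction values was not tested.

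Transcription regulators also split on shLuc replicate 3, and those named here were chosen after their values were seen. Of the 22 in the list, 4 were high on that array (Esrp1, Ehf, Elf5 and Gata3) and 4 low (Snai2, Zeb1, Twist2 and Klf4), against 1.58% and 0.731% of all genes. Esrp1, which encodes an epithelial splicing factor, was 1932 there and between 4.95 and 14.1 elsewhere. Zeb1, which encodes a repressor of E-cadherin, was 99.5 there and between 470.3 and 578 elsewhere, and Snai2, which encodes Slug, was 356 there and between 1554 and 2496 elsewhere. The shLuc and shSca-1 arrays overlapped for these 3 genes when shLuc replicate 3 was left out.

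**Figure D5:**
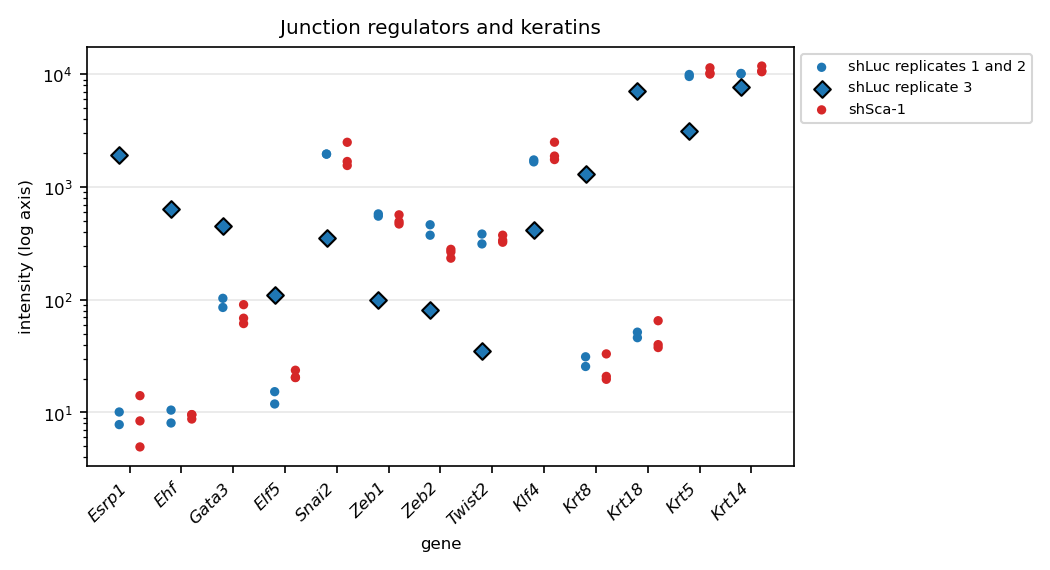
Intensity (log axis) of 9 transcription and splicing regulators of epithelial junctions and 4 keratins, with shLuc in blue (replicate 3 as a diamond) and shSca-1 in red. shLuc replicate 3 was high for Esrp1 (1932), Krt18 (7175) and Krt8 (1303) and low for Zeb1 (99.5), Snai2 (356) and Krt5 (3141).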

How the data were processed

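RNA of 3 shLuc and 3 shSca-1 samples of Wnt1-YL cells was hybridized to Affymetrix mouse 430 2.0 arrays, and the authors deposited 1 table of linear intensities, computed with dChip by its PM-MM model after invariant set normalization. The software version and a genome build for the probe sets are not given in the sources used here. Subtracting mismatch signal makes low values noisy, and intensities under 64 on all 6 arrays were called dim.

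Log2 was taken after raising values under 1 to 1. limma 3.58.1 (R 4.3.3) with a trend in the variance was fitted to 45037 of 45101 probe sets, without 64 control probe sets, with Benjamini-Hochberg adjustment over all of them. The fit was tested on simulated data with independent noise. These held no array that stood apart, so they do not test the fit under an array such as shLuc replicate 3. Of the probe sets, 34945 had 1 gene symbol, 932 several and 9160 none. Ly6a was named through the study's list of changed genes. For genes with several probe sets the one with the highest mean log2 value was used. Precision is limited by the number of arrays.

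The junction genes, the other lists and the rules were chosen with earlier results of these data known. Values on every array were given for members past the thresholds on 6 arrays, called without shLuc replicate 3, at least 4 times higher or lower on shLuc replicate 3, or with a mean of 1000 or more. Other members with full values (Cdh3, Ctnnd1, Ctnnd2, Cldn12, Cxadr, Nectin1 and Nectin4), and probe sets beyond the brightest, were chosen after their values were seen. Promoter windows were the 250 bases before each start in RefSeq. Alternatives covered normalization, floors, a filter, the variance model, the test, the fold, the choice of probe set, a replicate block and each array left out.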

Additional observations from a re-analysis of the deposited data

How the results depend on the processing

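The count of junction genes past the thresholds on 6 arrays was 1, Nectin2. It was 2 when values under 16 were set to 16, with no trend in the variance or with the methods' t-test (Ctnnd2 added), and 3 with a gene's probe sets averaged (Ctnnd1 and Cxadr added). Chosen after seeing the data, the brightest probe set by arithmetic mean gave 2 (Cxadr added), and counting any probe set gave 3. Leaving out 1 array at a time gave 1 to 2, with Cdh3 added without shLuc replicate 3. Without shLuc replicate 3, the count at an adjusted p under 0.05 (limma) was 1. It was 0 with values under 64 set to 64, with no trend and with the methods' t-test, 2 with the 40% dimmest probe sets left out or robust variance (Cdh3 added), 2 with probe sets averaged or the arithmetic mean (Cxadr added), and 3 counting any probe set. Leaving out a further array gave 0 to 7: 0 without shLuc replicate 1, shLuc replicate 2 or shSca-1 replicate 2, and 7 without shSca-1 replicate 3. In the fits without shLuc replicate 1 or 2, the lone shLuc array is assumed to vary like the shSca-1 arrays. The share of all genes called was not computed for fits with a further array left out or with the replicate block. Same-numbered arrays had correlations of deviations of -0.04, -0.02 and -0.03, which gave no sign of pairing by number. They cannot exclude it, since the shLuc deviations are taken from a mean that includes shLuc replicate 3. The replicate block left 1 junction gene on 6 arrays. Without shLuc replicate 3 it gave 6, but shSca-1 replicate 3 is then alone in its block and does not enter the comparison. The log2 fold change of Ly6a stayed between -4.64 and -3.92. Of 768 fold changes of single junction genes under these alternatives, 726 kept direction and call, 7 came to pass the thresholds, 35 changed sign with neither value past them, and 0 reversed a call. The causes were not tested.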
